A study of Mus musculus with 8 samples.

Results

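The genes described here are 37 mouse genes that interferon induces: 10 guanylate-binding protein (Gbp) genes and 27 other interferon-stimulated genes. Their chromatin was read from ATAC-seq, in which a transposase cuts open DNA, as counts over the 57199 peaks of a shared list. A peak was given to the protein-coding gene whose span lay nearest, within 50 kb, so a peak is tied to a gene by position alone. On that rule 113 peaks belonged to 30 of the 37 genes, and 91 of them, at 27 genes, held enough reads to test, against 47859 tested peaks in all. Gbp genes held 44 of the peaks (37 tested) and the other genes 69 (54 tested).

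The cells were regulatory T (Treg) cells, the Foxp3-expressing CD4+ T cells that restrain immune responses, sorted from spleen. Both groups came from mixed bone marrow (BM) chimeras, mice rebuilt with marrow of more than 1 donor, and from both groups the CD45.2+CD45.1- cells carrying CD4 and Foxp3-YFP, a yellow fluorescent reporter of Foxp3, were taken. The WT group is labelled as wild type. In the other group they carried Foxp3Cre and Flcn fl/fl and are called Flcn KO below. Flcn encodes folliculin, a regulator of lysosomal nutrient signalling, and its removal by a Cre driven from Foxp3 is limited to cells that have expressed Foxp3. Each group had 4 libraries, named as biological replicates; age and the marrow of the other donor are not stated in the labels.

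Interferons signal through receptors on the cell surface to JAK kinases and STAT transcription factors. Type I interferon mainly acts through a complex of STAT factors and IRF9 that binds the interferon-stimulated response element (ISRE), and interferon gamma through STAT dimers that bind the gamma-activated site (GAS). Gbp proteins and effector immunity-related GTPases attack membranes around intracellular microbes, and other GTPases of that family regulate it. Many of the remaining genes detect foreign RNA and DNA, block viral replication, or attach or remove ubiquitin-like tags on proteins.

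Promoter sequences showed how these elements sit in the genes described here. RefSeq promoter windows, in GRCm38.p6 (mm10) coordinates, run from 250 bases before to 50 after each transcription start, and 23 of the 37 genes had one. A core ISRE, searched as GAAA, any 2 bases and GAAA again on either strand, lay in the windows of 16 of these 23 genes (69.6%), against 3.99% of all 27025 genes. A core GAS, searched as TTCNNNGAA (the same on both strands), lay in 7 of the 23 (30.4%), against 9.55% of all genes. Neighbouring ISRE matches can share bases, and at Bst2 the GAS and an ISRE do. An ISRE and a GAS were both present at 5 of the 23 genes (21.7%), Gbp5, Gbp7, Oas1a, Bst2 and Igtp, against 0.54% of all genes. A match is a run of letters and not a measured binding site.

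The Igtp window is shown in full because it carries the largest fold change among the genes. It is on the plus strand at chr11:58199306-58199605, and the capitals mark a GAS that starts 45 bases before the transcription start and an ISRE that starts 34 bases before it. Irgm1, a gene of the same family, is shown beside it from chr11:48871391-48871490 on the minus strand, where capitals mark overlapping ISREs.
Igtp: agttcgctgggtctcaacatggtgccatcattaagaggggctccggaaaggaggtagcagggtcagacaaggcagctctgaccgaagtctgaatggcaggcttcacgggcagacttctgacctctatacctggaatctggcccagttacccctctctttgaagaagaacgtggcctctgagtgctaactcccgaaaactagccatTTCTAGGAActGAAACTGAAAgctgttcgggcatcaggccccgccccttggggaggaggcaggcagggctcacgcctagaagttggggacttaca
Irgm1: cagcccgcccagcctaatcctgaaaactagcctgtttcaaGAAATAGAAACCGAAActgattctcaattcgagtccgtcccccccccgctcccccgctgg

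The windows of the chromosome 3 Gbp genes are shown because these neighbours share the ISRE and differ in the GAS. All lie on the plus strand: Gbp2 at chr3:142620563-142620662, Gbp3 at chr3:142559953-142560052, Gbp5 at chr3:142496684-142496933 and Gbp7 at chr3:142530206-142530325. Capitals mark ISRE and GAS letters, and the GAS is found in Gbp5 and Gbp7 only among the 4.
Gbp2: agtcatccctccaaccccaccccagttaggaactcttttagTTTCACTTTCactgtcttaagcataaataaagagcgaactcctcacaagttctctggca
Gbp3: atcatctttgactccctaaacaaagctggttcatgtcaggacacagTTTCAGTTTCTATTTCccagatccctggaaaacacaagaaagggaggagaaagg
Gbp5: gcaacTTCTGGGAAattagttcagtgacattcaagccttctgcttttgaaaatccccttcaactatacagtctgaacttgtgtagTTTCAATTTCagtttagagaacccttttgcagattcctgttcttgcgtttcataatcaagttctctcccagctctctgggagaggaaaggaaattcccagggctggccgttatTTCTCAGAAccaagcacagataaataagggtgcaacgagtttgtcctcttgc
Gbp7: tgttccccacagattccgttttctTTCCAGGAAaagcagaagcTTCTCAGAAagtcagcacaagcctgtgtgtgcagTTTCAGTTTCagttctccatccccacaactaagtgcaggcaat

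A further set pairs genes with highly accessible promoters, Rsad2 and Trim30a, with genes whose ISRE-bearing windows had no peak, Oas1a and Ifit3, and with Isg15, whose ISREs overlap in a row. Rsad2 is at chr12:26456503-26456602, Trim30a at chr7:104465184-104465263, Isg15 at chr4:156200829-156200928 and Oas1a at chr5:120907516-120907635, all on the minus strand, and Ifit3 is at chr19:34583349-34583448 on the plus strand. Capitals again mark the motif letters.
Rsad2: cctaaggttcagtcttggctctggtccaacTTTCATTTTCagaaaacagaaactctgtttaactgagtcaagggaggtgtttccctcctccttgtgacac
Trim30a: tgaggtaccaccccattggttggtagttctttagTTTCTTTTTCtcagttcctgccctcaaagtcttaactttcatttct
Isg15: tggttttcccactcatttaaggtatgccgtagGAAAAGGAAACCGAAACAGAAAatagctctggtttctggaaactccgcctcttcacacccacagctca
Oas1a: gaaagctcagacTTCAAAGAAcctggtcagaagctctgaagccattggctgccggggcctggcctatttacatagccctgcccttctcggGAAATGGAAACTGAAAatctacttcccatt
Ifit3: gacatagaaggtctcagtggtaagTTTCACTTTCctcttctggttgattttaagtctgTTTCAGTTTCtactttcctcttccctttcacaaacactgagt

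A peak overlapped a window at 19 of the 23 genes, and the windows of Ifit3, Oas1a, Oasl1 and Oasl2 had none. The 15 tested peaks over ISRE-bearing windows, at 14 genes, had a median log2 fold change of 0.061 (Flcn KO minus WT). Of them 1 was called lower in Flcn KO, at Igtp, and the 14 others ranged from -0.24 to 0.41. None of the 5 tested peaks over windows without an ISRE was called, with a range of -0.25 to 0.25. Over all 47859 tested peaks 2.37% were called. Of the 11732 tested peaks within 1 kb of a gene end, 36 were called higher and 37 lower.

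Over the whole set, few peaks of these genes differed between Flcn KO and WT. Of the 91 tested peaks, 0 were called higher and 2 lower in Flcn KO, at Igtp and near Gbp4, and 89 did not pass (edgeR quasi-likelihood test, Benjamini-Hochberg adjusted p below 0.05 over all tested peaks). Over all tested peaks 2.37% were called, 1.35% higher and 1.02% lower. At an unadjusted p below 0.05, 5 of the 91 were higher and 7 lower, 13.2%, against 12.9% of all peaks (6.87% higher and 5.99% lower). By DESeq2 and by limma-voom the same 2 peaks were called. The median log2 fold change was 0.036, with quartiles of -0.14 and 0.22, against 0.0039 over all peaks, and 46 of the 91 (50.5%) lay above 0, against 50.6% of all. The libraries of the groups did not overlap at 5 of the 91 peaks, 2 higher and 3 lower, against 7.59% of all peaks.

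**Figure D1:**
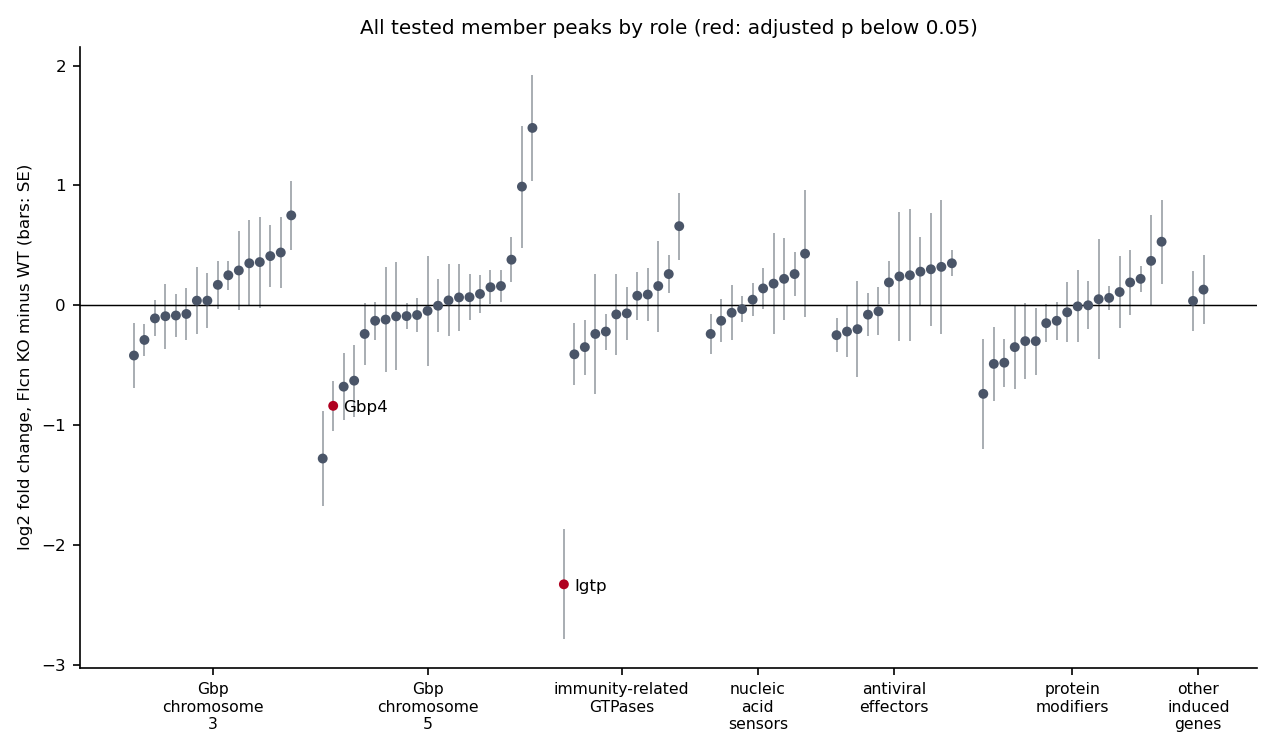
Log2 fold change (Flcn KO minus WT, vertical axis) of each of the 91 tested peaks, sorted within the role of its gene along the horizontal axis. Points are edgeR estimates, bars are 1 SE on each side, and the 2 red points, at Igtp (-2.33) and Gbp4 (-0.84), are the only ones with an adjusted p below 0.05.

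Igtp encodes IRGM3, an immunity-related GTPase of intracellular membranes, and its promoter peak carried the largest change of the set. This peak, chr11:58199355-58199702, spans the transcription start and contains the GAS and ISRE printed above. It held 7.06, 5.35, 6.37 and 4.92 CPM (counts scaled to library size and composition) in the 4 WT libraries and 1.56, 1.07, 0.497 and 1.52 in the 4 Flcn KO libraries. Every Flcn KO library lay below every WT library. The means were 5.93 ± 0.97 and 1.16 ± 0.498 (SD, n = 4), and the peak fell by 2.33 on the log2 scale (SE 0.46, edgeR adjusted p = 0.00181), to 0.199 of the WT level. In these bulk libraries, fewer cells open at a site and less opening per cell cannot be told apart. The Igtp values are low, 20 to 34 counts per WT library and 2 to 8 per Flcn KO library. The call held in all 15 alternative fits that tested the peak, with log2 fold changes of -2.56 to -2.07 and adjusted p of 0.000714 to 0.0307.

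No other Igtp peak was called. A second peak inside Igtp, chr11:58200257-58200514, was too low to test, with 1.66, 3.57, 3.06 and 5.41 CPM in WT and 0.782, 1.07, 0.994 and 0.762 in Flcn KO, again without overlap. The 3 other Igtp peaks, farther along and beyond the gene, had log2 fold changes of -0.24, 0.16 and 0.089 and adjusted p of 0.905 to 0.921. Summed over all its peaks, Igtp differed by -0.33 on the log2 scale (SE 0.15; edgeR adjusted p = 0.371), and summed over peaks within 1 kb it was called lower, at -1.43 (SE 0.29, adjusted p = 0.00494).

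Igtp lies 1.58 Mb from Flcn on chromosome 11, and called peaks were denser there. Within 5 Mb of Flcn 12 of 265 tested peaks were called (4.53%), 7 higher and 5 lower, against 16 of 2436 (0.657%) elsewhere on the chromosome. Over all tested peaks of the genome the share was 2.37%, so the rest of this chromosome lay below it. Up to 2 Mb from Flcn 8 of 149 peaks were called (5.37%), 6 higher and 2 lower. From 2 to 5 Mb there were 4 of 116 (3.45%), 1 higher and 3 lower. The calls were not centred on Flcn: the nearest on either side lay at -0.8518 Mb (H2bu2) and 3.015 Mb (Trim16). The part of this local density in the Igtp result was not tested. Irgm1 and Xaf1, the other genes of the set on this chromosome, lie 10.92 and 12.49 Mb from Flcn and had no called peak. At Flcn itself the 2 tested peaks were not called (adjusted p = 0.679 and 0.463). Of 2 low untested peaks inside Flcn, 1 had 0, 0.446, 0 and 0 CPM in WT and 3.13, 1.07, 1.99 and 6.1 in Flcn KO, so its libraries separated by label; which exons are floxed is not stated in the labels.

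**Figure D2:**
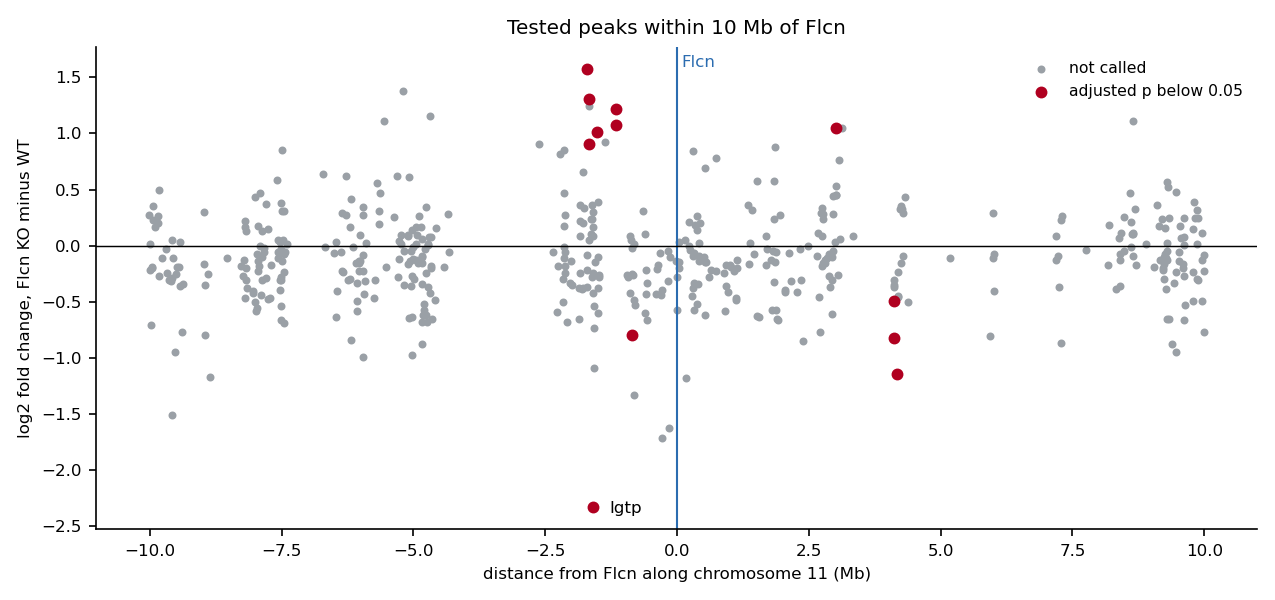
Log2 fold change (Flcn KO minus WT) of every tested peak within 10 Mb of Flcn, against distance from Flcn in Mb. Red points have an edgeR adjusted p below 0.05; the Igtp promoter peak, with a log2 fold change of -2.33, sits at -1.601 Mb among called peaks of both directions.

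The other immunity-related GTPases gave no called peak. The promoter peak of Irgm1, a regulator of this family and of autophagy, held 14.3 ± 2.4 CPM in WT and 13.7 ± 2.56 in Flcn KO, a log2 change of -0.068 (SE 0.22, edgeR adjusted p = 0.944). A peak 3.0 kb from Irgm1 held 8.3, 9.37, 12.2 and 10.3 CPM in WT and 8.21, 6.95, 7.96 and 6.86 in Flcn KO. The groups did not overlap there, but by a narrow margin, and the log2 fold change of -0.41 (SE 0.26) had an adjusted p of 0.561. Iigp1, an effector GTPase that coats parasite vacuoles, had 6 tested peaks. Its most accessible one, 6.8 kb outside the gene, held 39, 33.9, 39.8 and 43.8 CPM in WT and 39.5, 39, 39.8 and 72.4 in Flcn KO. The last library alone stood above the rest, and the log2 fold change of 0.26 (SE 0.16) had an adjusted p of 0.545. A peak 17.1 kb from Iigp1 held 5.4, 7.14, 5.1 and 7.87 CPM in WT and 9.39, 12.3, 6.96 and 12.2 in Flcn KO, with a log2 change of 0.66 (SE 0.28, adjusted p = 0.282).

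The Gbp genes form a cluster on chromosome 3 and a cluster on chromosome 5. The genes within a cluster are close copies, and how reads matching several copies were handled is not stated, so reads could be split between them. On chromosome 3, none of 16 tested peaks was called, and at an unadjusted p below 0.05 there were 2 higher and 1 lower. Their median log2 fold change was 0.10, with a range of -0.42 to 0.75. On chromosome 5, 0 of 21 were called higher and 1 lower, and at an unadjusted p below 0.05 there were 1 higher and 4 lower. The median there was -0.047, and the range was wider, -1.28 to 1.48. Summed over its peaks, the chromosome 3 cluster held 280 ± 13.2 CPM in WT and 288 ± 24.1 in Flcn KO, and the chromosome 5 cluster 391 ± 8.88 and 386 ± 13.3 (SD, n = 4). Both pairs of means differed by less than the spread between libraries. At an unadjusted p below 0.05 the 37 Gbp peaks counted 8 (21.6%) and the 54 peaks of the other genes 4 (7.41%), against 12.9% of all peaks; the difference between these shares was not tested.

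**Figure D3:**
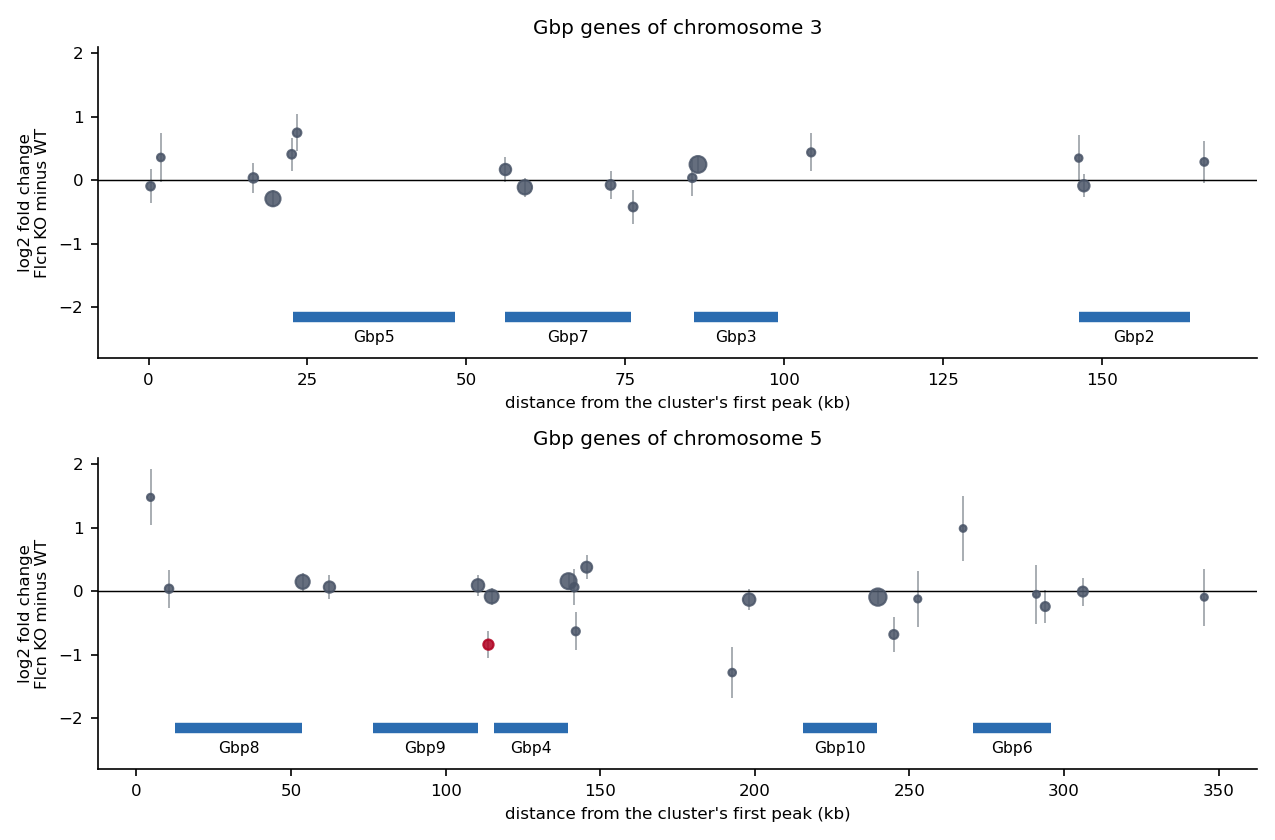
Log2 fold change (Flcn KO minus WT, bars 1 SE) of the tested Gbp peaks against distance in kb from the first peak of each cluster, with gene spans as blue bars. Point area grows with mean CPM; the red point between Gbp9 and Gbp4 is the only one called, and the widest departures from 0 are at small points.

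The Gbp peak called lower lies at chr5:105113697-105114040, between Gbp9 and Gbp4 and 1.7 kb from Gbp4. It held 21.2, 18.3, 21.7 and 21.9 CPM in WT and 8.21, 11.2, 13.9 and 13.7 in Flcn KO. The groups did not overlap, and the means were 20.8 ± 1.67 and 11.8 ± 2.67 (SD, n = 4). The peak fell by 0.84 on the log2 scale (SE 0.21, edgeR adjusted p = 0.0221), to 0.56 of the WT level. The direction held in 17 alternatives, but 5 of the 8 fits that left out a library lost the call, with adjusted p of 0.0578 to 0.0707. The libraries concerned were WT replicates 1, 3 and 4 and, in Flcn KO, replicates 1 and 2.

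No other Gbp4 peak was called. The next peak, 0.7 kb from Gbp4, differed by -0.082 on the log2 scale (SE 0.14; adjusted p = 0.883). The peak at the other end of Gbp4, its most accessible, held 49.6, 51.3, 49 and 41.1 CPM in WT and 49.3, 50.8, 51.5 and 64 in Flcn KO, with a log2 change of 0.16 (SE 0.13, adjusted p = 0.658). A small peak 2.4 kb beyond that end held 10.8, 9.37, 8.41 and 5.9 CPM in WT and 7.04, 4.27, 5.47 and 5.33 in Flcn KO, with a log2 change of -0.63 (SE 0.30, adjusted p = 0.359). Gbp9, with 1 peak, had 27 CPM in WT and 28.7 in Flcn KO (log2 fold change 0.094, SE 0.16).

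The widest fold changes on chromosome 5 sat at small distal peaks that missed the threshold. A peak 7.7 kb from Gbp8 held 0.83, 2.23, 2.55 and 2.46 CPM in WT and 8.21, 6.41, 2.98 and 4.57 in Flcn KO. All 4 Flcn KO libraries were above all 4 WT libraries, and the log2 fold change of 1.48 (SE 0.44) had an adjusted p of 0.0629; without Flcn KO replicate 3 it was 1.70, with an adjusted p of 0.0375. A peak 22.8 kb from Gbp10 held 8.3, 10.3, 2.04 and 8.36 CPM in WT and 3.13, 3.21, 1.99 and 3.81 in Flcn KO. WT replicate 3 alone overlapped the Flcn KO libraries there, and the log2 fold change of -1.28 (SE 0.40, adjusted p = 0.0822) became -1.58 (adjusted p = 0.0106) without it. On the other side of Gbp10, 5.2 kb away, a peak held 16, 13.8, 10.2 and 12.3 CPM in WT and 3.91, 6.41, 11.9 and 11.4 in Flcn KO, with a log2 change of -0.68 (SE 0.28, adjusted p = 0.265).

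At Gbp10 and Gbp8 the peak with the most reads lay at a gene end. At Gbp10 it held 62.7, 62, 64.3 and 61.5 CPM in WT and 50.8, 62.5, 60.2 and 62.5 in Flcn KO, and only Flcn KO replicate 1 stood clearly lower. At Gbp8 it held 39, 32.6, 36.2 and 35.9 CPM in WT and 32.8, 41.7, 47 and 38.9 in Flcn KO, and the groups overlapped. Neither was called (log2 fold changes -0.091 and 0.15, adjusted p = 0.822 and 0.732). Gbp6 had 5 tested peaks, and the one with the most reads, at 12.9 CPM per kb, was the lowest per length of the 27 such peaks. The Gbp6 peaks had adjusted p of 0.421 to 0.997.

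On chromosome 3 the peaks of Gbp5, a Gbp that supports inflammasome activity, varied in opposite directions. A peak 3.0 kb outside Gbp5 held 44.4, 55.3, 47.9 and 50.2 CPM in WT and 39.5, 39, 45.7 and 37.3 in Flcn KO (log2 fold change -0.29, SE 0.13, adjusted p = 0.327). A peak just inside the gene held 4.57, 6.69, 11 and 4.43 CPM in WT and 9.78, 11.2, 14.9 and 8.38 in Flcn KO (log2 fold change 0.75, SE 0.29, adjusted p = 0.216). Neither passed, and in both the groups overlapped through 1 WT library. The Gbp5 promoter peak over the printed window lay between them, at 8.01 ± 1.61 CPM in WT and 10.7 ± 1.59 in Flcn KO (adjusted p = 0.55).

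Gbp3, Gbp7 and Gbp2 gave no called peak either. The Gbp3 peak with the most reads lay over the later of its promoter windows, which has no ISRE. It held 56.9, 53.8, 50 and 47.7 CPM in WT and 62, 54.8, 62.7 and 70.1 in Flcn KO, with a log2 change of 0.25 (SE 0.12, adjusted p = 0.35). Only Flcn KO replicate 2 lay inside the WT range. The printed ISREs lie in the other window. A peak over part of that window, ending before the printed stretch, had 8.02 ± 0.805 CPM in WT and 8.17 ± 2.16 in Flcn KO. Its log2 change was 0.038 (SE 0.28, edgeR adjusted p = 0.976). The Gbp7 peak inside the gene held 46.1, 44.2, 35.7 and 35.9 CPM in WT and 35.6, 28.3, 41.3 and 46.5 in Flcn KO, with full overlap and a log2 change of -0.11 (SE 0.15, adjusted p = 0.845). At the Gbp2 promoter the means were 4.03 ± 1.11 and 5.06 ± 1.5 CPM (log2 fold change 0.35, SE 0.36, adjusted p = 0.773).

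**Figure D4:**
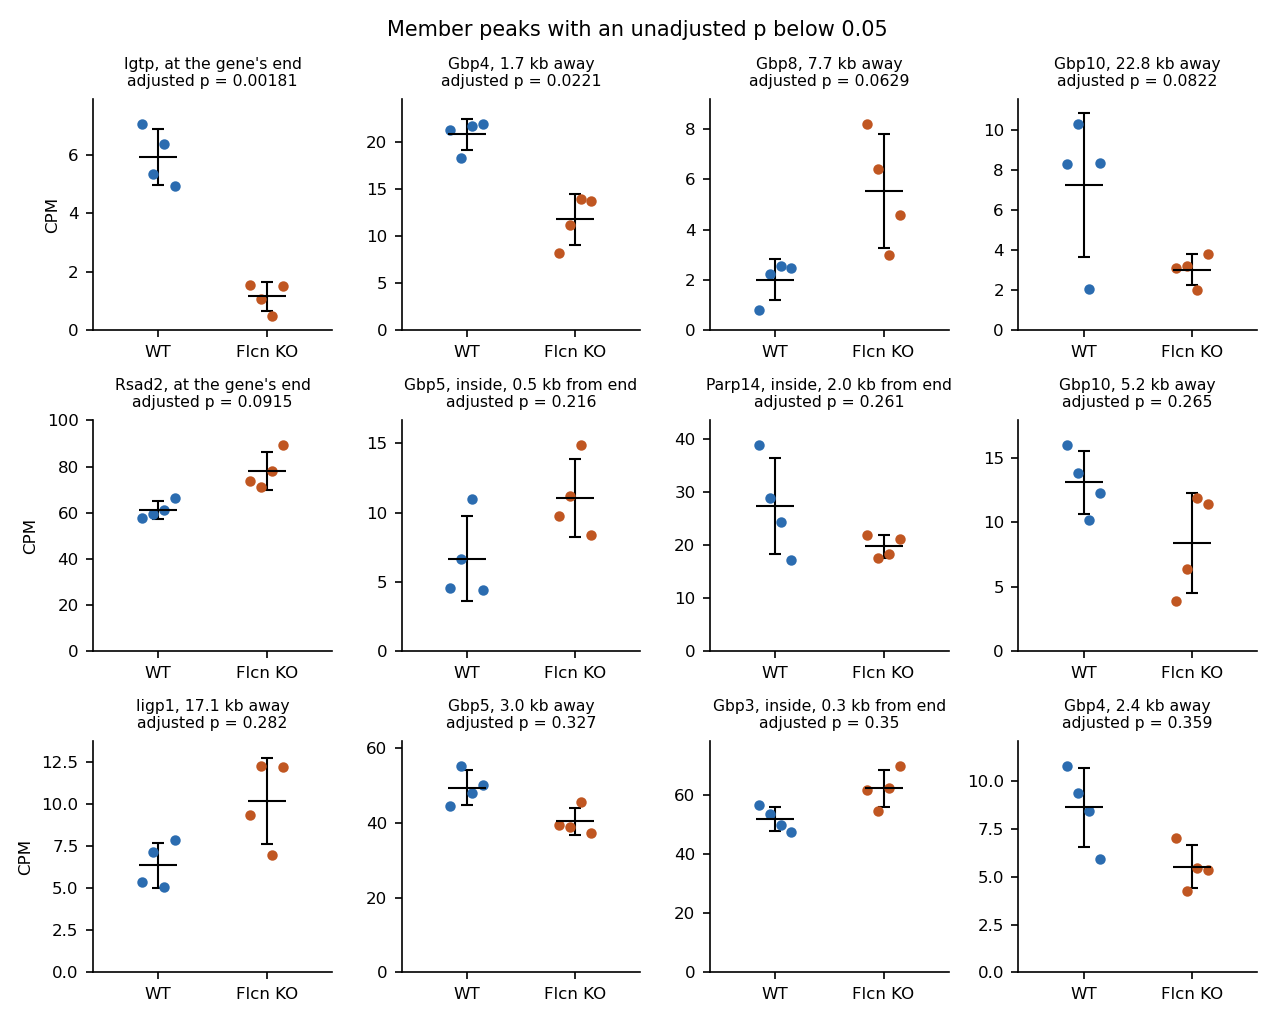
CPM by library (points) in WT and Flcn KO for the 12 peaks with an unadjusted p below 0.05, with the mean (long bar) and SD (n = 4), each axis starting at 0. Groups are separate at Igtp, Gbp4, Gbp8 and Rsad2 and overlap in the other 8 panels; the titles give edgeR's adjusted p.

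Among the antiviral effectors, Rsad2 came closest to a call. It encodes viperin, which makes a chain-terminating nucleotide against viral RNA synthesis. Its promoter peak, chr12:26456295-26456750, covers the ISRE printed above and was the most accessible per length of the 27 peaks with the most reads at each gene, at 153 CPM per kb. It held 57.7, 59.6, 61.2 and 66.4 CPM in WT and 73.9, 71.1, 78.3 and 89.5 in Flcn KO. The groups did not overlap, with means of 61.2 ± 3.75 and 78.2 ± 8.12 (SD, n = 4). The log2 fold change of 0.35 (SE 0.11) had an edgeR adjusted p of 0.0915, with 0.0635 to 0.292 over the alternatives, and so did not pass. Summed over its 3 peaks, Rsad2 differed by 0.33 on the log2 scale (SE 0.096; adjusted p = 0.0729).

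The other effectors showed no called peak. None of the 12 tested effector peaks passed, with a range of -0.25 to 0.35. The Isg20 peak, at the gene of an interferon-induced RNA exonuclease, held 58.7, 45.5, 42.3 and 42.3 CPM in WT and 37.5, 39, 40.8 and 42.7 in Flcn KO (log2 fold change -0.25, SE 0.14, adjusted p = 0.467). WT replicate 1 was the highest and the rest lay close together. The promoter peak of Bst2, or tetherin, which holds budding virions at the cell surface, had 17.7 ± 3.06 and 17.1 ± 3.52 CPM. Ifit2, which binds viral RNA, had 17.7 ± 3.19 CPM at its promoter in WT and 15.1 ± 2.89 in Flcn KO (adjusted p = 0.737).

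Several effector genes could not be followed by the nearest-gene rule. Ifit1, Ifit3, Oas1a and Oasl1 had no assigned peak. A peak over the Ifit1 promoter window, chr19:34640623-34641003, was given to the neighbouring Ifit1bl2 and held 27.1 ± 4.09 CPM in WT and 29.6 ± 3.74 in Flcn KO (adjusted p = 0.827). Mx1, Mx2 and Gbp11 are transcribed pseudogenes in the table, so no peak could be given to them; 1 peak overlapped Mx1, 1 overlapped Mx2 and 2 overlapped Gbp11. Oasl2, Oas2 and Ifi44 had peaks too low to test. Summed as a gene and scaled to the totals of the gene sums, the 2 Oasl2 peaks held 2.83, 7.17, 5.35 and 3.06 CPM in WT and 0.417, 1.66, 2.7 and 2.42 in Flcn KO, without overlap. The log2 change was -1.42 (SE 0.51, edgeR adjusted p = 0.177). Over the whole set, 22 peaks were untested, at 0.369 to 2.82 CPM.

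The nucleic acid sensors were accessible and gave no call in 10 tested peaks, with a range of -0.24 to 0.43. Ifih1 encodes MDA5, a sensor of long double-stranded RNA, and its promoter peak held 57.3, 69.6, 68.3 and 66.9 CPM in WT and 69.2, 59.3, 60.7 and 66.7 in Flcn KO. The libraries were interleaved (log2 fold change -0.033, SE 0.11, adjusted p = 0.946). Ddx58, the gene of the RNA sensor RIG-I, had 29.7 ± 3.23 and 25.1 ± 4.98 CPM at its promoter (log2 fold change -0.24, SE 0.17, adjusted p = 0.605). Zbp1, a sensor of left-handed nucleic acid that can trigger cell death, held 47.7, 40.6, 47.4 and 48.2 CPM in WT and 57.7, 40.1, 40 and 51.8 in Flcn KO. The Flcn KO libraries lay on both sides of WT (log2 fold change 0.046, SE 0.14, adjusted p = 0.938).

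The genes for protein modifiers and the remaining induced genes were likewise not called. Of the 18 modifier peaks none passed, with a median log2 fold change of -0.034. Trim30a, a ubiquitin ligase gene of the TRIM family, held the most reads of the set at a peak over the later of its promoter windows. It held 72.2, 77.6, 77 and 76.3 CPM in WT and 75.5, 81.2, 84.5 and 74.7 in Flcn KO (log2 fold change 0.061, SE 0.10, adjusted p = 0.879). At the window printed above, with 171 CPM per kb, the means were 69.6 ± 5.1 and 81.3 ± 13.4 CPM (log2 fold change 0.22, SE 0.11, adjusted p = 0.438). A peak inside Parp14, an ADP-ribosyltransferase gene, held 39, 29, 24.5 and 17.2 CPM in WT and 21.9, 17.6, 18.4 and 21.3 in Flcn KO. The WT libraries spread widely, with WT replicate 4 just below the Flcn KO libraries and the other WT libraries above them (log2 fold change -0.48, SE 0.20, adjusted p = 0.261). Isg15, a ubiquitin-like tag, had 8.29 ± 2.85 and 8.35 ± 2.34 CPM at its promoter, and Usp18, the protease that removes that tag, had adjusted p of 0.539 to 1 over 7 peaks. Xaf1 and Rtp4, with 1 tested peak each, had log2 fold changes of 0.036 and 0.13.

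**Figure D5:**
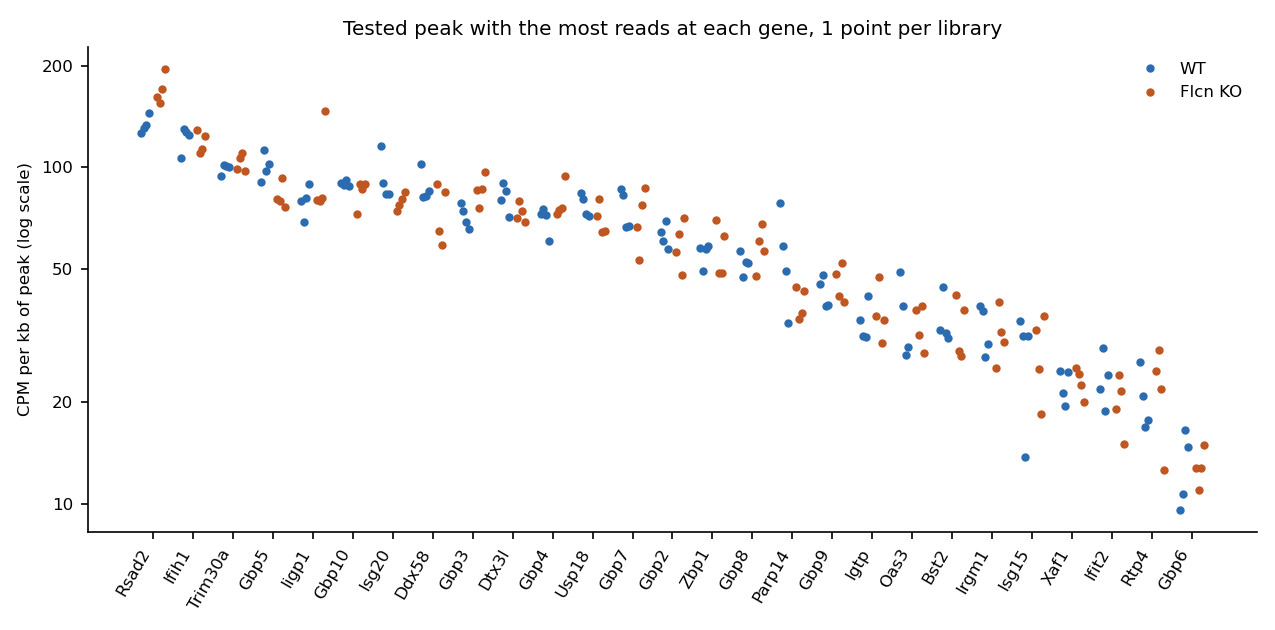
CPM per kb of peak (log axis) in each WT and Flcn KO library for the tested peak with the most reads at each of 27 genes, ordered by the mean. Rsad2 stands highest at 153 and Gbp6 lowest at 12.9, and the groups overlap at every gene but Rsad2.

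Set against all tested peaks, the peaks of these genes were a little more accessible and nearer to gene ends. Their median level was 10.7 CPM against 8.97, or 27.6 against 23 CPM per kb, with median widths of 365 and 383 bp. Of the 91, 37.4% lay within 1 kb of a gene end, against 24.5% of all, and 53.8% lay inside a gene, against 65.1%. All tested peaks include those beyond 50 kb of a gene, which the assignment rule keeps out of the set. Over the 43193 tested peaks within 50 kb, 27.2% lay within 1 kb of a gene end and 72.2% inside a gene. Their median level was 9.24 CPM, or 23.5 CPM per kb. The 34 peaks within 1 kb of a gene end had a median log2 fold change of -0.042, and all such peaks -0.035. Summed over the peaks of each gene, 0 of 29 tested genes of the set were called, against 1.84% of all 13491 genes. At an unadjusted p below 0.05 there were 5 of the 29, 2 higher and 3 lower, against 12.7% of all, and DESeq2 called 0 too.

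The pathway around these genes was read from a wider list of 91 interferon genes that shares no gene with the set. Of its 305 tested peaks, at 80 genes, 3 were called higher and 2 lower in Flcn KO, a smaller share than the 2.37% called over all tested peaks. Before adjustment, 28 peaks of the list had a p below 0.05 and a higher level and 12 a lower one, together 13.1% against 12.9% of all, and the median log2 fold change was 0.051. Near Nlrc5, a transactivator of MHC class I genes, a peak 5.7 kb away held 7.89, 6.69, 5.61 and 7.63 CPM in WT and 14.1, 13.9, 14.9 and 16 in Flcn KO. The groups were far apart, and the peak was higher by 1.07 on the log2 scale (SE 0.24, edgeR adjusted p = 0.00848), with a call in all 17 alternatives.

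A peak 25.1 kb from Tbk1, the kinase that activates IRF3, fell by 0.82 (SE 0.20, adjusted p = 0.0153). Peaks nearest to the interferon genes Ifnb1, 7.3 kb away, and Ifng, 15.4 kb away, were higher by 1.01 and 0.60 (adjusted p = 0.0422 and 0.0424). Leaving out 1 library ended the calls of Tbk1, Ifnb1 and Ifng, with adjusted p up to 0.188, and limma-voom did not call Ifnb1 either (adjusted p = 0.0586). The libraries were WT 2 and Flcn KO 3 and 4 for Tbk1, all but Flcn KO 2 for Ifnb1, and all but WT 1 and Flcn KO 1 for Ifng.

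Library totals ran from 2723344 to 5111728 counts, with Flcn KO replicate 4 the lowest. All 6 Treg marker genes had peaks, summing to between 1202 and 1357 CPM per WT library and 1276 and 1477 per Flcn KO library, and of their 71 tested peaks 3 were called higher and 1 lower. For this and the lists below, the share called over all tested peaks was 2.37%, 1.35% higher and 1.02% lower. Of 6 myeloid markers Lyz2, Csf1r and Adgre1 had no peak, and the 3 others summed to 40.6 to 58.3 CPM in WT and 41.3 to 50.1 in Flcn KO, with none of 8 tested peaks called. Peaks of 2 NK cell markers summed to 223 to 256 CPM in WT and 239 to 321 in Flcn KO, with 1 of 10 called higher and 1 lower, and those of 2 CD8 T cell markers to 28 to 39.6 and 23.4 to 50, with none called. Of 3 plasmacytoid dendritic cell markers Siglech had no peak. Peaks of the plasmacytoid list, cells that make much type I interferon, summed to 247 to 302 CPM in WT and 284 to 353 in Flcn KO. None of the 19 tested peaks of this list was called. Peaks of 3 erythroid markers summed to 37.8 to 43 CPM in WT and 53.4 to 73.9 in Flcn KO, without overlap, with 1 of 5 tested peaks called higher. The part of these cell types in the results at the interferon genes was not tested.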

How the data were processed

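The 8 libraries (4 WT, 4 Flcn KO) were grouped by their titles. The authors deposited raw counts per peak and library over 57199 mm10 peaks, with no normalization. The tools named, per the submitters' processing notes and with no stated role, are MACS2 2.1.1, bedtools 2.25.0, BWA 0.7.16, Trimmomatic 0.36, SAMtools 1.9 and Picard 2.9.4. Duplicate handling, transposase offsets and any pooling before peak calling are not given in the sources used. Of the counts per library, 88.7% to 92.7% were even, as when each mate of a pair is counted; precision rests on the spread between libraries. The p-values weigh the difference between the groups against that spread, which the fits estimate with the help of all peaks.

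Peaks passing edgeR's filterByExpr (minimum count 10) were fitted with genotype as the only term by edgeR's quasi-likelihood test (edgeR 4.0.16, R 4.3.3; TMM scaling, robust dispersion), with Benjamini-Hochberg adjustment over all 47859 tested peaks (83.7%). CPM values are TMM-scaled, given as mean ± SD. SE is the fitted log2 change over the root of F. Peaks were assigned with RefSeq spans (GRCm38.p6; no strand, exons or introns), and RefSeq promoter windows of the same assembly were searched for motifs. Gene sums added the counts of each gene's assigned peaks. Their CPM, printed for Oasl2 and the marker lists, were scaled to the totals of the gene sums and so run slightly higher than the CPM of peaks. The fits were also run on simulated counts, in which only peaks with a higher mean count than the Igtp peak were changed. That run does not bear on peaks as low as Igtp, and no conclusion is drawn from it.

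The genes and lists were chosen with earlier results of these data known. Peaks are named if called, if their unadjusted p was below 0.05, or if they were among the 12 highest of the peaks with the most reads at each gene; these 21 peaks, and 5 of the wider list, entered the checks of single peaks in the closing section. Other peaks with the most reads at their gene are summarised or named without those checks. Of the wider list, called peaks are named; a gene that this rule names is left out and not reported here. Promoter peaks outside this rule, Ifit1, Oasl2, untested peaks, and other peaks beside a named one were chosen after their values were seen. Alternatives were DESeq2 1.42.0, limma 3.58.1 with voom, other scalings and filters, counts divided by 2, a replicate block, other assignment distances and leaving out each library.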

Additional observations from a re-analysis of the deposited data

Results flagged for a closer look

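Among the 21 peaks of the set that were called, had an unadjusted p below 0.05 or were among the 12 highest of the most-read peaks, 42 groups of 4 libraries were examined for a library far from its group, and 3 had one; chance gives about 1 in 20. At the Gbp4 peak at its far end, Flcn KO replicate 4 held 64 CPM and the other Flcn KO libraries 49.3 to 51.5. At the Iigp1 peak 6.8 kb outside the gene, the same library held 72.4 CPM and the others 39 to 39.8. At the Zbp1 promoter peak, WT replicate 2 held 40.6 CPM and the others 47.4 to 48.2. Flcn KO replicate 4 had the lowest total, 2723344 counts.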

How the results depend on the processing

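Of the 26 peaks named by rule (21 of the set and 5 of the wider list), 23 kept their direction and 19 their side of the threshold in every alternative that tested them. Leaving out 1 library moved the count of called peaks from 1133 to between 665 (without WT replicate 2) and 1797 (without Flcn KO replicate 1), the called peaks of the set from 2 to between 1 and 3, those of the Gbp genes to between 0 and 2, and called gene sums from 248 to between 161 (without Flcn KO replicate 3) and 561 (without Flcn KO replicate 1). With the stricter filter (minimum count 30) and with counts divided by 2, 1 peak of the set was called and 0 outside the Gbp genes, because the Igtp peak was no longer tested. Limited to peaks within 1 kb, 1 peak and 1 gene sum were called, both at Igtp. Leaving out 1 library also moved small log2 changes across 0: at Gbp7 from -0.21 to 0.012 and at Ifih1 from -0.095 to 0.0069 (both above 0 without Flcn KO replicate 2), and at Zbp1 from -0.074 to 0.12 (below 0 without Flcn KO replicate 1, and at -0.015 without WT replicate 2); the cause was not tested. Replicate numbers did not pair the libraries (correlations of same-numbered deviations 0.0871, -0.0601, 0.0592 and 0.0599, and only number 1 matched itself best); with a replicate block 1375 peaks and the same 2 peaks of the set were called, and 86 of 91 kept direction. Over the scalings, filters and tools tried, the median log2 change of all peaks lay between -0.0048 and 0.0056. Depth limits what could be seen at the 22 untested peaks of the set, which held 2.82 CPM or less.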

Other observations

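Of the 22 peaks of the set that were too low to test, 4 had groups that did not overlap: 2 lower in Flcn KO (Igtp, given in the report, and Gbp2) and 2 higher (Ifit2 and Zbp1). The share over all untested peaks was not counted, so whether this is more than usual at such low counts is not known. Among all tested peaks the share was 7.59%. The Gbp2 peak, 12.3 kb from the gene, held 3.74, 2.23, 1.53 and 2.46 CPM in WT and 0.782, 1.07, 1.49 and 0.762 in Flcn KO. The Ifit2 peak, inside the gene, held 0, 1.34, 1.02 and 1.48 CPM in WT and 2.74, 3.21, 1.99 and 2.29 in Flcn KO. The Zbp1 peak, 19.1 kb from the gene, held 0.623, 0.446, 0.51 and 0.492 CPM in WT and 1.56, 2.14, 2.98 and 0.762 in Flcn KO. At Irgm2, a GTPase gene next to Igtp and outside the set, a peak 1.5 kb away held 7.06, 5.8, 5.35 and 3.44 CPM in WT and 2.35, 1.6, 4.48 and 1.52 in Flcn KO, with a log2 fold change of -1.09 (SE 0.41) and an edgeR adjusted p of 0.197. It had the lowest fold change of the tested Irgm2 peaks and was chosen after the values were seen. The peak at the end of Irgm2 went the other way, at 0.30 (adjusted p = 0.744). The remaining tested Irgm2 peaks had log2 fold changes of -0.42, -0.73, -0.53 and -0.15, and none was called.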
